A study of Mus musculus with 12 samples.

Results

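A set of 8 genes that mark oligodendrocyte precursors on their way to becoming myelin-forming cells (Gpr17, Bmp4, Fyn, Itpr2, Enpp6, Sirt2, Neu4 and Bcas1) were followed through maps of H4K8ac, the acetylation of lysine 8 on histone H4. The members were chosen by name: every peak that the authors assigned to one of the 8 genes was taken, from lists that name 23433 genes in all, and for Gpr17 also the peaks within 10 kb assigned to its neighbours. H4K8ac had been mapped by chromatin immunoprecipitation and sequencing in oligodendrocyte progenitor cells sorted from mouse forebrain. All cells came from PdgfrαH2BEGFP mice, in which a nuclear green fluorescent protein reports the activity of Pdgfra, so that the sort can also take other cells that use this gene. The neonatal group was sorted at postnatal day 5 (3 libraries) and the adult group at postnatal day 60 (3 libraries), with no other treatment or allele named in the labels. The series also holds 6 input libraries, which were not analysed here. The labels call the libraries of an age biological replicates and do not say how many animals stand behind each.

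Histone H4 acetylation is laid down by acetyltransferases, removed by deacetylases and found mainly at active promoters and enhancers. Progenitors that leave the cell cycle pass through a committed precursor stage before they make myelin. Gpr17, an orphan G protein-coupled receptor, is used only briefly, at that stage, and is known to hold back terminal maturation. Enpp6, a choline-specific phosphodiesterase, and Bcas1 are used as markers of newly forming oligodendrocytes, and Bmp4 encodes a secreted ligand that restrains oligodendrocyte differentiation.

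Promoter sequences are given with the share of each that peaks covered. Among the 6 members with a RefSeq entry matched, the sequences printed are of the pair with the largest adult-minus-neonatal difference in bases under peaks (Fyn and Sirt2) and the pair with the smallest (Bmp4 and Neu4). Each is a RefSeq promoter on GRCm38.p6, 300 bases from 250 before the start of that entry to 50 after it. It is written 5′ to 3′ on the strand of the gene with every CG dinucleotide in capitals. The start of the entry can differ from the gene start given below, as it does for Fyn.
Fyn, chr10:39369549-39369848, plus strand: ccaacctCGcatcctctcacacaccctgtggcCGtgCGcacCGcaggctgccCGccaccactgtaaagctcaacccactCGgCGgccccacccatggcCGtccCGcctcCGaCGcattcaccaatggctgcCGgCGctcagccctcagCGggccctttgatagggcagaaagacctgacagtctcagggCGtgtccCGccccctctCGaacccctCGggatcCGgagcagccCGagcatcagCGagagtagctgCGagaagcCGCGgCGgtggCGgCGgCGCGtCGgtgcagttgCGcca
Sirt2, chr7:28766502-28766801, plus strand: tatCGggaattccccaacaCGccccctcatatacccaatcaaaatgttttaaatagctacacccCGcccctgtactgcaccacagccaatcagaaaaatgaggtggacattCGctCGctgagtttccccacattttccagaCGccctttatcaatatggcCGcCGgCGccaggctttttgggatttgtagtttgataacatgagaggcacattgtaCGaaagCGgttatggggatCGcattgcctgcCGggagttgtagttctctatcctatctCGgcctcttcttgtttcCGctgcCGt
Bmp4, chr14:46390620-46390919, minus strand: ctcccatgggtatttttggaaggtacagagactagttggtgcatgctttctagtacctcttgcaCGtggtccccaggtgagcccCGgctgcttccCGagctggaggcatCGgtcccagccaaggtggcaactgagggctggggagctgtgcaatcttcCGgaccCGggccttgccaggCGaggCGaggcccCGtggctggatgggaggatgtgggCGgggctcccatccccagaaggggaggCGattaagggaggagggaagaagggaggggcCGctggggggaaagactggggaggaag
Neu4, chr1:94020243-94020542, plus strand: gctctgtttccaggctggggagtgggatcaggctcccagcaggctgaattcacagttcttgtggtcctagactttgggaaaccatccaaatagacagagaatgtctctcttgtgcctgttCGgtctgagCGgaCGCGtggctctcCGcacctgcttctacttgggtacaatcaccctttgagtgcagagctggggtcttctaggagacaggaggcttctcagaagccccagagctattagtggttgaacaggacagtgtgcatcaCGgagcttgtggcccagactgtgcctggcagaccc
The Fyn promoter held 31 CG dinucleotides, Sirt2 16, Bmp4 12 and Neu4 6, against a median of 7 over 32851 RefSeq promoters of the same length. Peaks covered 31.0%, 16.7% and 21.3% of the Fyn window in adult replicates 1, 2 and 3, and 0%, 3.33% and 0% in the neonatal ones. The Sirt2 window was covered over 5.67%, 8% and 7.33% in the adult libraries and over 0% in the neonatal ones. It ends before the start of the longest Sirt2 model in the peak lists (28766816). In 300 bases placed likewise around that start, peaks covered 27%, 28.7% and 28.7% in the adult libraries. The neonatal values there were 0%, 9.33% and 0%. The Bmp4 and Neu4 windows were covered in no library, so at these starts the marked bases lay outside the letters shown. ACAAAG, a core of SOX factor sites, was searched on both strands. It was not found in the promoters of the 6 members with an entry, and 18.7% of all RefSeq promoters hold it.

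The lists of the libraries differed in length, and this bears on every value given here. Values for the libraries of an age are given in the order replicate 1, 2 and 3. Neonatal replicate 2 held 31189 peaks, against 9097 and 7353 in neonatal replicates 1 and 3 and between 72278 and 77002 in the adult libraries. Peaks covered 2.33 to 13.7 Mb in neonatal and 41.9 to 60.9 Mb in adult libraries. Read numbers are not in the files, so depth is unknown. Of 8 OPC markers (Pdgfra, Cspg4, Olig2 and others) 8, 8 and 7 had a promoter peak in the neonatal libraries, and 7 in each adult library. Of 8 microglial markers 0 had one in the neonatal libraries and 1 in each adult library. A difference in peaks does not tell a larger share of cells with the mark from more mark per cell.

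Most of the 8 genes carried more H4K8ac-marked sequence in adult than in neonatal progenitors, and Bmp4 and Neu4 did not separate the ages. The quantity compared was covered length, the number of bases under peaks within the gene (RefSeq coordinates, GRCm38.p6) and 10 kb either side. For 6 of 8 members (Gpr17, Enpp6, Bcas1, Itpr2, Fyn and Sirt2) all 3 adult libraries exceeded all 3 neonatal ones. The same held for 69.7% of the 26558 genes with a covered base in any library, so the members' share is close to that of genes in general. No member lay below in every adult library, against 0.166% of genes. The median adult-minus-neonatal difference was 12.4 kb over the members and 0.984 kb over all these genes, but the windows of Itpr2, Fyn and Enpp6 are long. Without neonatal replicate 2, all 8 members separated, as did 84.8% of genes.

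**Figure D1:**
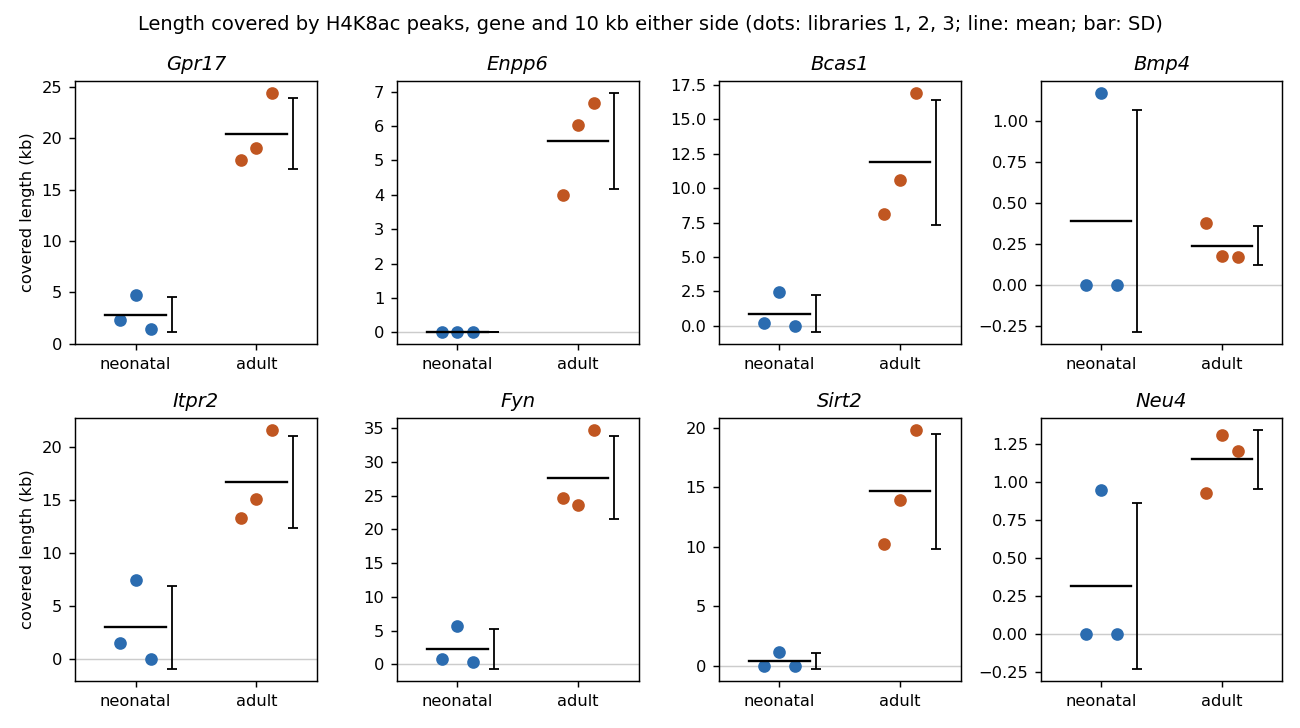
Covered length in kb (vertical axis, own scale for each gene) for the 8 genes in 3 neonatal (blue) and 3 adult (orange) libraries; lines are means and bars are SD. The ages are apart for Gpr17, Enpp6, Bcas1, Itpr2, Fyn and Sirt2 and overlap for Bmp4 and Neu4, where neonatal replicate 2 is the neonatal library with peaks.

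The transcription start site (TSS) of a member is that of its longest gene model in the lists, and distances run along the gene. The peaks assigned to the members numbered 8, 39 and 2 in the neonatal libraries and 77, 92 and 105 in the adult ones. Promoter peaks, which the authors place within 3000 bp of any TSS, made up 6, 19 and 2 of them in the neonatal libraries and 28, 37 and 38 in the adult libraries. Peaks in the gene body (UTRs, exons and introns) numbered 1, 13 and 0 in neonatal and 40, 42 and 54 in adult libraries. Summed over the members, promoter peaks were thus the largest class in each neonatal library and gene body peaks the largest in each adult library. The lists as a whole shifted in the same way, with 85.2%, 67.5% and 88.8% of all peaks at promoters in the neonatal libraries and 43.9%, 43.1% and 40.4% in the adult ones. Most adult gene body peaks of the members came from the long genes Itpr2 (15, 15 and 21) and Fyn (18, 15 and 24). In Sirt2, adult promoter peaks (8, 10 and 9) outnumbered gene body peaks (2, 2 and 1). Bcas1 likewise had 6, 10 and 9 promoter against 3, 7 and 6 gene body peaks in adult libraries. A promoter peak in every neonatal library was found for 2 members, Gpr17 and Fyn, against 18% of all genes named in the lists. One in every adult library was found for 5 members, Enpp6, Bcas1, Itpr2, Fyn and Sirt2, against 57.9% of genes. Enpp6 alone among the members had one in every adult and no neonatal library, against 9.60% of genes.

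Gpr17 (ENSMUSG00000052229.5, chromosome 18, 31942999 to 31949890, minus strand) stood under one of the most densely marked stretches at both ages. Peaks covered 2.29, 4.73 and 1.42 kb of its 26.9 kb window in the neonatal libraries. They covered 17.9, 19.0 and 24.4 kb in the adult ones. The adult libraries all lay above the neonatal ones, with means of 20.5 ± 3.48 and 2.81 ± 1.71 kb (SD, n = 3 each) and a difference of 17.6 kb (p = 0.1 by an exact two-sided permutation test, and 3 against 3 libraries cannot give less). The difference was 5.52 kb over the gene body alone and 5.39 kb over the peaks assigned to Gpr17, so most of it lay in the flanks and under the name of a neighbour. In share of the window this was 5.28% to 17.6% in neonatal and 66.6% to 90.8% in adult libraries. Ranked among the 15637 protein-coding genes with a covered base, the Gpr17 share stood at the 99.89, 99.71 and 99.74 percentiles in the neonatal libraries. It stood at the 99.95, 99.94 and 99.99 percentiles in the adult ones, so its place near the top of the ranking was common to all 6 libraries.

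The marked stretch differed in shape between the ages. In neonatal cells it was broken into 6, 9 and 4 peaks in turn, the widest 0.779, 1.51 and 0.449 kb long. In adult cells the widest peaks were 3.36, 4.72 and 12.7 kb long, and a peak lay over the TSS in all 3 adult and in no neonatal library. The neonatal peaks assigned to Gpr17 lay beside the TSS, and their highest fold enrichment over background, the authors' own value for each peak, was 5.77, 9.37 and 3.40 in turn. All 5.26 kb that any neonatal library covered lay under a peak of at least 1 adult library. The adult libraries covered 16.4 kb in common, of which 11.4 kb (69.3%) had a peak in no neonatal library. Over all bases common to the adult lists this share was 69.2%, so Gpr17 did not stand apart in it.

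One block without a neonatal peak lay at the 3′ end of Gpr17. It ran from 3.08 to 6.52 kb past the TSS (chromosome 18, 31943112 to 31946560) and was annotated as 3′ UTR by the authors. A single peak of 3.36, 3.39 and 3.45 kb filled it in the adult libraries, with a fold enrichment of 11.7, 12.9 and 18.3. No neonatal library had a peak there, although all 3 had a peak at the promoter. In neonatal replicate 3 that promoter peak was a single weak one, ranked 6939 of 7353 by q-value. A wider region of this kind, 4.03 kb long and 15.2 to 19.3 kb past the TSS, reached the edge of the window and was assigned to Lims2.

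Gpr17 lies inside the locus of Lims2, a gene for an adaptor protein of focal adhesions, and peaks carry no strand. Of the peaks within 10 kb, 2 of 6, 3 of 9 and 3 of 4 were assigned to Lims2 in the neonatal libraries, and 13 of 16, 12 of 15 and 6 of 7 in the adult ones. No other gene was assigned any. Counted as peaks rather than bases, the ages overlapped (9 in neonatal replicate 2 against 7 in adult replicate 3, where peaks had fused). In adult replicate 3 a single peak of 12.7 kb spanned the Gpr17 TSS and was assigned to Lims2, so that this library has no promoter peak under the name Gpr17. By position, a peak lay within 3000 bp of the Gpr17 TSS in all 6 libraries. Which of the overlapping genes the mark belongs to cannot be told apart.

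**Figure D2:**
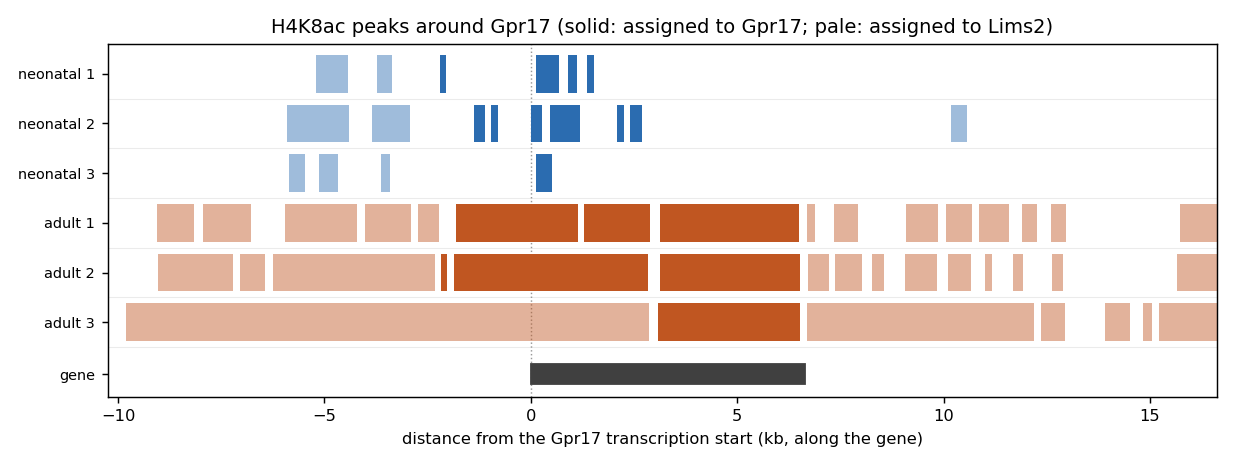
Peaks of each of the 6 libraries around Gpr17, by distance from its TSS in kb along the gene; solid bars are assigned to Gpr17, pale bars to Lims2, and the grey bar is the gene. Neonatal libraries show separate short peaks, most of them near the promoter, and adult libraries near-continuous cover with a block of 3.36 to 3.45 kb at the 3′ end that has no neonatal peak.

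Bmp4 (chromosome 14, 46383525 to 46390669, minus strand), the secreted ligand, was the member with the least mark in adult cells. Its window was covered over 0, 1.17 and 0 kb in the neonatal libraries and over 0.380, 0.176 and 0.171 kb in the adult ones. The groups overlap, since neonatal replicate 2 was the highest of all libraries and the other neonatal libraries were at 0 (difference -0.148 kb, exact two-sided permutation test, p = 1, n = 3 and 3). Without neonatal replicate 2 the difference was 0.242 kb. One merged region, 2.60 to 3.21 kb past the TSS and within the Bmp4 gene, held peaks of all 3 adult libraries and of neonatal replicate 2. The adult libraries had 0 kb of it in common. The peak of adult replicate 1 overlapped neither other adult peak and was joined to them by the neonatal peak. The authors annotated the peaks of this region as promoter of Gm15222. Only neonatal replicate 2 had a promoter peak assigned to Bmp4, and no library had a peak over its 5′ start. In covered share the Bmp4 window stood at the 25.5, 15.7 and 12.2 percentiles of protein-coding genes in the adult libraries.

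Fyn (chromosome 10, 39369743 to 39565381, plus strand) encodes a Src-family kinase that acts early in oligodendrocyte differentiation. Its window of 216 kb was covered over 0.869, 5.68 and 0.316 kb in the neonatal libraries and over 24.6, 23.6 and 34.8 kb in the adult ones. The ages did not overlap (difference 25.4 kb, exact two-sided permutation test, p = 0.1, n = 3 and 3), and the peaks assigned to Fyn alone differed by 15.8 kb. Fyn was the member with a promoter peak under its own name in all 6 libraries. The strongest promoter peak began 0.021 to 0.256 kb past the TSS, with fold enrichments of 5.14, 16.2 and 4.50 in the neonatal and 23.9, 11.3 and 10.9 in the adult libraries. In neonatal replicate 2 it ranked 256 of 31189 peaks by q-value. Adult libraries had longer cover in blocks near the far end of the gene. A region 169 to 174 kb past the TSS had peaks in 3 adult and 2 neonatal libraries. So did a region 181 to 187 kb past the TSS, whose peaks were all assigned to Gm16364. Of 57 merged regions in the window, 48 (84.2%) had a peak in no neonatal library, against 73.7% of the 98027 merged regions of all lists. Of the 57, 7 (12.3%) were present in all 3 adult and no neonatal library, against 20.4% over all lists.

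Itpr2 (chromosome 6, 146108299 to 146502258, minus strand) encodes a calcium release channel of the endoplasmic reticulum. Covered length was 1.49, 7.44 and 0 kb in the neonatal libraries and 13.3, 15.1 and 21.7 kb in the adult ones, out of 414 kb. The ages did not overlap (difference 13.7 kb, exact two-sided permutation test, p = 0.1, n = 3 and 3). The mark was placed differently along the gene. Peaks at the promoter were present in 2 neonatal and 3 adult libraries. Adult peaks then clustered at the 3′ end, where regions 386 to 390 kb and 391 to 394 kb past the TSS were covered in all 3 adult and no neonatal library. Neonatal peaks instead lay in the first 102 kb of the gene apart from one region: 14 of 56 merged regions had a neonatal and no adult peak, all of them between 19.6 and 102 kb past the TSS. Of these 14, 13 were found in neonatal replicate 2 only, and 1 (chromosome 6, 146438013 to 146438347) in neonatal replicates 1 and 2. The authors assigned 10 of the 14 to Gm15720 and 4 to Itpr2. Across all members 18 regions had a neonatal and no adult peak, 14 of them around Itpr2. That is 25% of the Itpr2 regions and 10.2% of all member regions, against 5.62% over all lists.

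Enpp6 (chromosome 8, 46939197 to 47096762, plus strand), the choline-specific phosphodiesterase, was without a peak in all 3 neonatal libraries. Covered length was 3.99, 6.03 and 6.67 kb of 178 kb in the adult libraries. The difference was 5.56 kb (exact two-sided permutation test, p = 0.1, n = 3 and 3). A peak lay over the TSS in each adult library, with a highest promoter fold enrichment of 5.66, 5.96 and 5.12 in turn. Regions in all 3 adult libraries numbered 6, running from -8.68 to 20.2 kb relative to the TSS, with none in the rest of the gene. This TSS (46986887) lies inside the RefSeq gene. The region before it is thus within the RefSeq gene, though the authors annotated it as intergenic. Peaks of the regions from 18.1 kb on were assigned to Gm45600. The Enpp6 peaks were modest: none was among the 7353 strongest of any library, so the difference was not seen at equal numbers of peaks.

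Sirt2 (chromosome 7, 28766752 to 28788665, plus strand) encodes a protein deacetylase that is abundant in oligodendrocytes and myelin. Its window of 41.9 kb was covered over 0, 1.17 and 0 kb in the neonatal libraries and over 10.2, 13.9 and 19.8 kb in the adult ones. The difference was 14.3 kb (exact two-sided permutation test, p = 0.1, n = 3 and 3), with no overlap of the ages, and 23.4 kb with 50 kb either side. Adult peaks filled 24.3%, 33.2% and 47.3% of the window, second among the members to Gpr17, and stood at the 96.6, 98.3 and 98.9 percentiles of covered share. A peak over the TSS had a fold enrichment of 16.3, 13.9 and 18.1 in the adult libraries, against 5.08 for the promoter peak of neonatal replicate 2. In each adult library a further peak, between -1.05 and -0.313 kb of the TSS, was assigned to Nfkbib. In all, 6 of 16, 5 of 17 and 7 of 17 adult peaks of the window were assigned to the neighbours Nfkbib and Rinl. The peaks assigned to Sirt2 alone differed by 10.7 kb. Which of these genes the mark belongs to cannot be told apart.

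Neu4 (chromosome 1, 94020493 to 94028334, plus strand), a sialidase, had 1 region common to the adult libraries, 14.5 to 15.6 kb past the TSS and beyond the end of the gene. It had a peak in neonatal replicate 2 and in all adult libraries. Covered length was 0, 0.949 and 0 kb in the neonatal libraries and 0.929, 1.308 and 1.21 kb in the adult ones. Neonatal replicate 2 lay within the adult range, so the ages overlapped (difference 0.831 kb, exact two-sided permutation test, p = 0.2, n = 3 and 3). Over the gene body alone the Neu4 difference was 0.131 kb (exact permutation p = 0.7). Promoter peaks were present in neonatal replicate 2 and in adult replicates 2 and 3.

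Bcas1 (chromosome 2, 170343973 to 170427911, minus strand), a marker of premyelinating oligodendrocytes, was covered over 0.167, 2.41 and 0 kb in the neonatal libraries. The adult values were 8.12, 10.6 and 16.9 kb of 104 kb in turn. The ages did not overlap (difference 11.025 kb, exact two-sided permutation test, p = 0.1, n = 3 and 3). The start of its longest model had no peak within 3000 bp in any library. The promoter peaks lay at starts inside the gene, the strongest in a region 18.03 to 24.9 kb past that start, with fold enrichments of 16.6, 12.8 and 15.2 in the adult libraries. Neonatal replicate 2 had a promoter peak there with a fold enrichment of 4.56. Other peaks of the window were assigned to Bcas1os1, an opposite-strand transcript, and without strand the genes cannot be told apart. Further on, between 38.4 and 41.9 kb past the start, 3 regions were found in all 3 adult and no neonatal library, and another in 2 adult libraries.

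**Figure D3:**
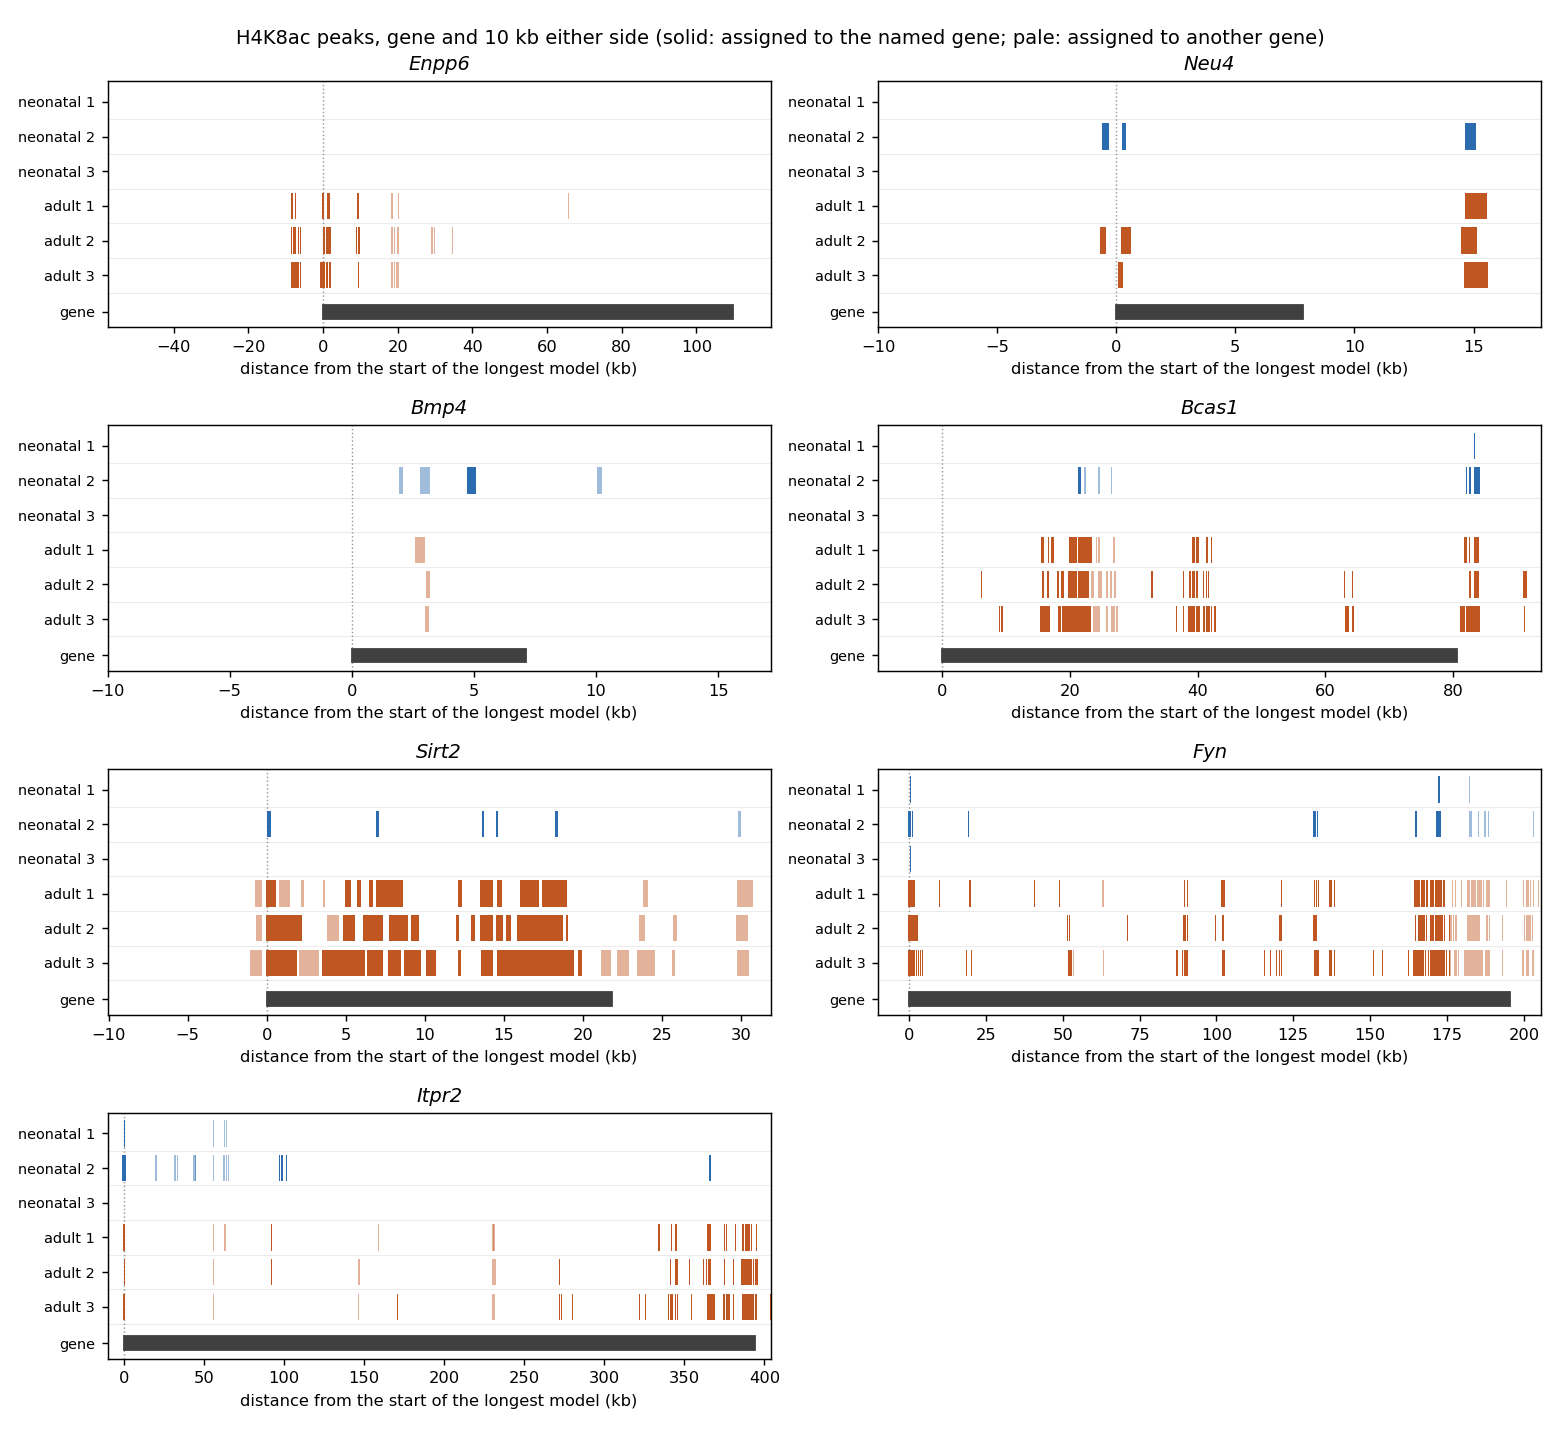
Peaks of the 6 libraries around the other 7 members, by distance in kb from the start of the longest gene model (grey bar), each panel on its own scale. Enpp6 has adult peaks only, the adult peaks of Itpr2 and Fyn include a cluster at the far end of the gene, and the neonatal peaks of Itpr2 lie in its first 102 kb, with 1 further region near the far end.

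List length was then held equal by taking the 7353 strongest peaks of each library by q-value. Gpr17, Bcas1, Itpr2, Fyn and Sirt2 stayed apart, 5 of 8 members, against 39.7% of the genes covered in these shorter lists. The other members had no covered base in them and so are not among those genes. None of the covered members lay lower in each adult library, against 4.51% of the covered genes. Gpr17 was covered over 1.94, 1.77 and 1.42 kb in neonatal and 9.46, 9.66 and 21.6 kb in adult libraries. Sirt2 was covered over 0 kb in each neonatal library and 0.638, 2.26 and 6.83 kb in the adult libraries. The differences were smaller than with the full lists: 11.9 kb for Gpr17, 5.75 kb for Fyn, 4.09 kb for Itpr2, 3.24 kb for Sirt2 and 2.82 kb for Bcas1. Enpp6, Bmp4 and Neu4 had none of the strongest peaks in any library.

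As a share of all bases under peaks in its library, the Gpr17 window took 0.0770%, 0.0344% and 0.0609% in neonatal and 0.0428%, 0.0430% and 0.0401% in adult libraries. On this scale the direction turned, and the ages overlapped (difference -0.0155 percentage points, exact two-sided permutation test, p = 0.4, n = 3 and 3). The Gpr17 window thus gained covered bases in adult libraries without taking a larger part of the total. The Itpr2 direction turned as well, to -0.000871 percentage points (exact permutation p = 1). Enpp6, Bcas1, Fyn and Sirt2 stayed apart, 4 of 8 members against 20.6% of genes. Fyn took 0.0292%, 0.0414% and 0.0135% in neonatal and 0.0588%, 0.0534% and 0.0571% in adult libraries.

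**Figure D4:**
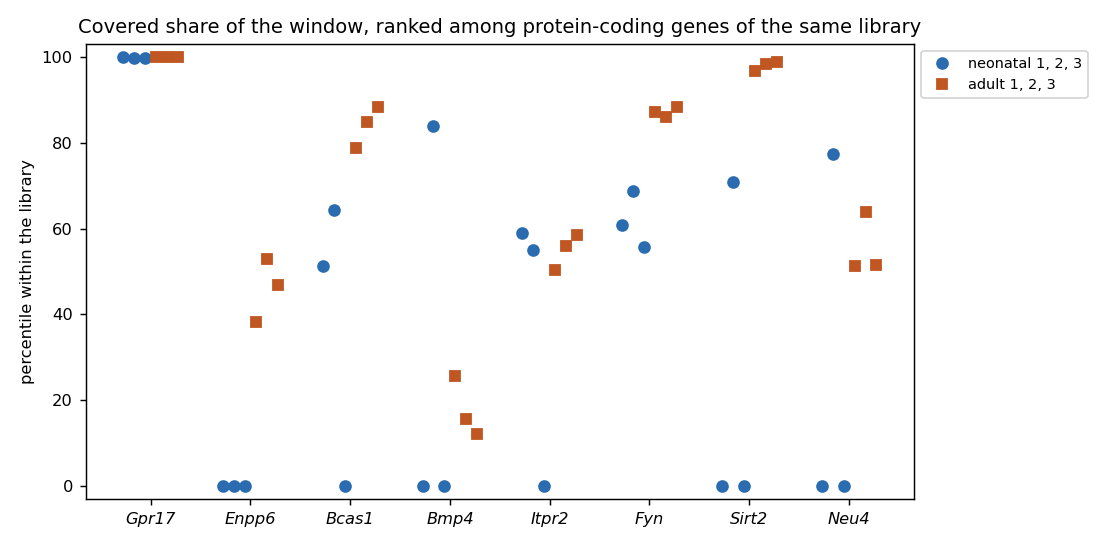
Percentile of the covered share of each gene's window among protein-coding genes of the same library (vertical axis), in 3 neonatal (circles) and 3 adult (squares) libraries. Gpr17 lies above 99 in all 6 libraries, Enpp6, Bcas1, Sirt2 and Fyn are higher in each adult than in each neonatal library, and Bmp4 lies between 12.2 and 25.5 in adult libraries.

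The authors' deposited table of differential sites gives a log2 fold change between the ages and an adjusted p-value for each site, and no value per library. Positive values of the authors' deposited table were read as higher in adult cells, since its negative sites overlapped peaks of the neonatal lists in 78.0%, 98.0% and 54.7% of cases and of the much longer adult lists in 23.2%, 15.7% and 18.9%. Positive sites of the authors' deposited table overlapped the neonatal lists in 11.7%, 27.8% and 10.3% of cases and the adult lists in 85.0%, 89.4% and 96.7%. Of the sites tested for the authors' deposited table, 79.6% had more mark in adult cells and 0.463% more in neonatal ones. Within 10 kb of the members, the authors' deposited table lists 67 sites, 65 of them positive and 2 negative. The median of these 67 pooled sites in the authors' deposited table was 2.33 on the log2 scale, against 2.41 over all listed sites. Fyn with 18 sites and Itpr2 with 16 weigh most in it. Taken gene by gene, the medians in the authors' deposited table lay on both sides of 2.41. They were 3.12 for Gpr17, 2.62 for Itpr2, 2.54 for Enpp6 and 2.51 for Bcas1. Lower were Sirt2 with 2.37, Fyn with 2.09 and Neu4 with 1.15.

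Gpr17 has 4 sites in the authors' deposited table, with log2 fold changes of 3.72, 2.58, 3.65 and 1.301. The last, in the promoter 0.744 kb past the TSS, was the smallest (adjusted p = 0.00793), and the site with 3.65 in the authors' deposited table lay in the 3′ block (adjusted p = 6.92e-16). In Fyn the 18 sites of the authors' deposited table ran from 1.33 to 5.11, and the site at the promoter peak shared by all 6 libraries had 1.45 (adjusted p = 0.00921). Enpp6 has 8 sites in the authors' deposited table, the largest at the TSS with 4.41 (adjusted p = 9.18e-07). Bcas1 has 12 sites between 1.47 and 4.99 and Sirt2 has 8 between 1.53 and 3.30 in the authors' deposited table. Neu4 has a single site in the authors' deposited table, the one beyond the gene end, with 1.15 (adjusted p = 0.0260), and Bmp4 has none.

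Itpr2 was the member with sites in both directions in the authors' deposited table: 14 with more mark in adult cells and 2 with more in neonatal ones. In the authors' deposited table these 2 stood at -1.56 (adjusted p = 0.0350) and -1.20 (adjusted p = 0.0356) on the log2 scale. They lie 64.0 and 62.8 kb past the TSS, each under a peak of 2 neonatal libraries, and the latter also under one of an adult library. The largest Itpr2 value in the authors' deposited table, 4.69, belongs to a site 390 kb past the TSS, in the 3′ cluster (adjusted p = 1.55e-13).

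**Figure D5:**
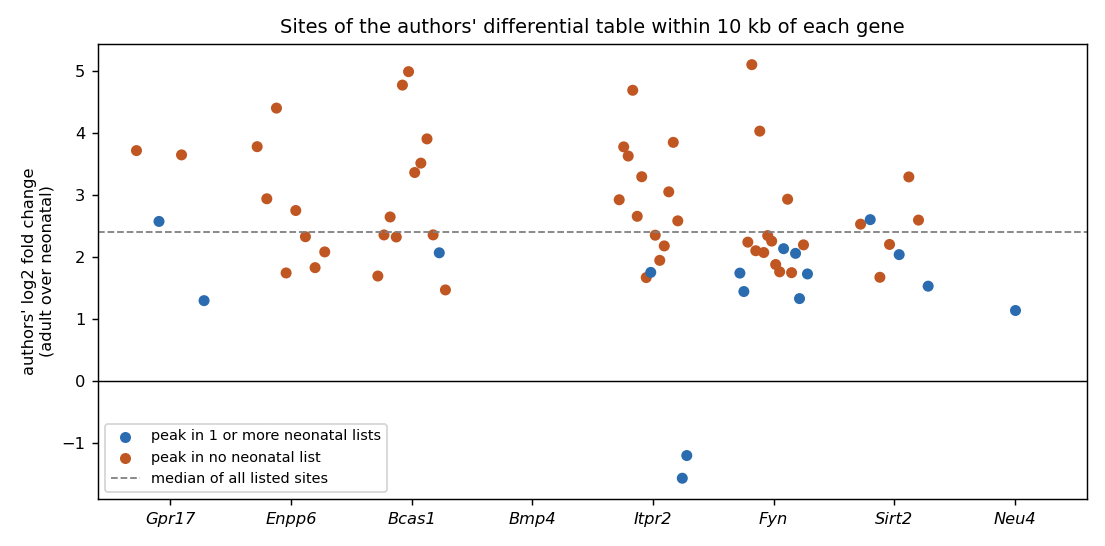
Log2 fold change, adult over neonatal, of each site of the authors' deposited table within 10 kb of a member; blue sites overlap a peak of 1 or more neonatal lists and orange sites of none. All sites lie above 0 but for 2 at Itpr2, and the dashed line is the median of 2.41 over all listed sites.

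The genes most like each member were found from the 6 within-library percentiles of covered length, by Euclidean distance over protein-coding genes whose windows do not overlap its own. These percentiles share list length and gene length within each library, so the likeness is a description only. Nearest to Gpr17 were Tgfa, Phldb1 and Sox10, at distances of 1.11, 1.28 and 1.35 percentile points. Sox10, a transcription factor that defines the oligodendrocyte lineage, was covered over 3.54, 7.59 and 1.52 kb in neonatal and 18.8, 21.1 and 23.2 kb in adult libraries. Nearest to Enpp6 were Pfdn1, Evi2a and Habp2, to Bcas1 Arhgef3, Slc1a3 and Sipa1l2, and to Sirt2 Thsd4, Plekhf1 and Syne3. Nearest to Fyn were Arhgap23, Agap1 and Rab31, to Itpr2 Amz1, Mad1l1 and Myh9, and to Bmp4 Cdh3, Lmo2 and Ezr.

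A further 12 genes of the committed precursor stage gave a like picture. In 10 of 12 (not in Casr and Tmem2) all 3 adult libraries exceeded all 3 neonatal ones, against 69.7% of all genes, and in 0 they lay below. Their median difference was 6.04 kb. The largest was that of Tns3, a focal adhesion protein of the tensin family, covered over 1.32, 5.30 and 0.510 kb in neonatal and 41.9, 49.9 and 70.5 kb in adult libraries. The smallest was that of Casr, the calcium-sensing receptor, with no peak in any library.

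Markers of other stages and cell types were counted in the same way, and their part in these results was not tested. Of all genes with a covered base, 69.7% lay higher in every adult library. All 8 mature oligodendrocyte markers (Mog, Mag, Mobp and others) lay higher in every adult library, with a summed covered length of 0.689 to 8.43 kb in neonatal and 121 to 153 kb in adult libraries. The largest difference was that of Mbp, myelin basic protein, at 38.8 kb. For the 8 members the sums were 1.74 to 23.6 kb and 79.5 to 126 kb. Of the 8 OPC markers 4 lay higher in every adult library; the largest difference was 23.2 kb for Cspg4, a surface proteoglycan, and the smallest -2.75 kb for Cacng4, which overlapped between the ages. Summed over the OPC markers, covered length was 8.23 to 52.5 kb in neonatal and 67.9 to 88.1 kb in adult libraries. Of 8 genes each, 2 microglial, 3 neuronal, 2 astrocyte and 2 fibroblast and endothelial markers lay higher in every adult library, against 69.7% of genes. A covered base in any library was found for 3, 6, 7 and 4 genes of these lists in turn. The summed length of the microglial markers was 0.446 to 0.904 kb in neonatal and 7.39 to 9.45 kb in adult libraries, most of it at Cx3cr1, a chemokine receptor, which had no neonatal peak and 7.11, 6.15 and 7.57 kb in the adult libraries. Csf1r, P2ry12, Tmem119 and C1qa had no peak in any library. For the fibroblast and endothelial markers it was 0 to 3.63 kb and 7.33 to 11.5 kb. Kdr, an endothelial receptor, had no neonatal peak and 2.499, 3.43 and 4.27 kb in the adult libraries. Pecam1, an endothelial adhesion molecule, had 0, 1.47 and 0 kb in neonatal and 3.31, 3.99 and 3.70 kb in adult libraries. Col1a1, a fibroblast collagen, overlapped between the ages, with 0.315, 1.55 and 0 kb in neonatal and 1.53, 2.97 and 3.50 kb in adult libraries. Col3a1, Lum, Dcn and Cldn5 had no peak in any library.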

How the data were processed

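The members and gene lists were chosen with earlier results of these data known. Per the submitters' processing notes the tools were Trim Galore, Bowtie2 2.4.5, SAMtools, deepTools, MACS2, DiffBind and ChIPseeker with build GRCm38; their settings and the use of input are not given in the sources used here. Each library has its own deposited peak list, which per the file headers holds a score, a fold enrichment (a linear ratio) and −log10 of the p-value and q-value of every peak. In the authors' deposited table of differential sites, every site has a log2 fold change with raw and adjusted p-values. Its number of tested sites, 54838, was recovered from the Benjamini-Hochberg steps.

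Positions were counted from 1. Covered length was computed with numpy 2.4.6 and pandas 2.3.3 under Python 3.11.15 over RefSeq genes (GRCm38.p6) with 10 kb either side, and checked on simulated data. Ages were compared by exact two-sided permutation over 20 arrangements, which cannot give a p under 0.1, so no comparison could reach 0.05. Each such p-value is the share of arrangements of these libraries with a mean difference at least as large in size as that observed. It is not a measure of spread. All 8 members are named; from each gene list the genes with the largest and smallest difference are named, from neighbours of Gpr17 all, and for each member its 3 most like genes. A few items that these rules select are not reported here. Alternatives were other windows, stricter q-values, equal list lengths, other quantities, left-out libraries and a replicate block. Input libraries were left out.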

Additional observations from a re-analysis of the deposited data

How the results depend on the processing

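The differences in covered length of Enpp6, Bcas1, Fyn, Sirt2 and Neu4 kept their direction wherever a setting gave a value. As a share of all covered bases, that of Gpr17 turned to -0.0155 percentage points and that of Itpr2 to -0.000871; the share divides by a total that is larger in adult libraries. Bmp4 ranged from -0.344 to 0.242 kb when a library was left out, the latter without neonatal replicate 2. The count of all genes with the adult libraries on top, 18516, was 6430 at equal numbers of strongest peaks, 10206 by number of peaks, 11941 by the peaks that the authors assigned and 5476 by share; the cause was not tested. Of the members, 6 separated, between 4 by share and 8 without neonatal replicate 2; this set of alternatives was chosen after seeing the data. Members with a promoter peak in every neonatal library numbered 0 where 50% of the 300 bases had to be covered, and 1 at a q-value under 0.005 or under 0.0005. At these q-values Gpr17 lost its promoter peak of neonatal replicate 3 and Fyn remained. Those with one in every adult library numbered 2 under that cover and 3 at equal numbers of strongest peaks. Taken by position within 3000 bp of a TSS of the gene, whatever the assigned name, they numbered 7, with Gpr17 and Bmp4 added. Enpp6, Bmp4 and Neu4 have no value at equal numbers, having no such peak. With the replicate number as a block the differences are the same by construction (Gpr17 17.6 kb) and an exact sign-flip test gave p = 0.25, its smallest. Same-numbered libraries correlated at -0.0645, 0.00730 and 0.0833, within the range of differently numbered ones (-0.120 to 0.109). Whether libraries of the same number share a batch was not tested. Read numbers are unknown, so what depth limits could not be measured.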
